A study of Mus musculus with 12 samples.

Results

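The interaction of genotype and lipopolysaccharide (LPS) was measured in mouse bone marrow-derived macrophages with and without Hdac3. For each gene, the LPS response of Hdac3 +/- cells (mean log2 signal after LPS minus mean untreated) was subtracted from the LPS response of Hdac3 -/- cells. A value below 0 therefore means that the gene was induced less, or repressed more, in Hdac3 -/- cells. All 12 arrays of the series entered the comparison, and 216 of 19945 genes passed the threshold, an adjusted p under 0.05 in limma. Each gene was represented by its brightest probe set with a single gene symbol.

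The 4 groups of 3 arrays were HDAC3 +/- untreated, HDAC3 +/- with LPS, HDAC3 -/- untreated and HDAC3 -/- with LPS. The macrophages came from C57BL/6 marrow grown in L929-conditioned medium, a source of the growth factor CSF1, and were taken at day 7. LPS was given at 100 ng/ml for 4 h. The +/- cells are labelled wild type but carry 1 altered Hdac3 allele, so the comparison is between 1 intact allele and none. The labels do not say how or in which cells Hdac3 was deleted, nor whether arrays came from separate animals. The p-values therefore measure the spread between these arrays, which may be technical.

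LPS is sensed by the receptor TLR4, which signals through the adaptors MyD88 and TRIF to NF-kB, MAP kinases and IRF3. TRIF and IRF3 induce type I interferon, which acts back on the cell through its receptor and induces a second wave of interferon-stimulated genes. Hdac3 is a histone deacetylase and the catalytic subunit of the NCoR and SMRT corepressor complexes, which hold many signal-dependent promoters in a repressed state. An interaction tells a gene whose response to LPS differs between genotypes from a gene that is merely higher or lower in both conditions.

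The Hdac3 probe set read 9.42, 9.10 and 8.98 in untreated +/- arrays and 8.90, 9.02 and 8.66 after LPS. It read 7.39, 7.52 and 7.39 in untreated -/- arrays and 6.91, 7.25 and 7.18 after LPS. Every -/- array was below every +/- array, with differences of -1.74 (SE 0.153, adjusted p 1.7e-05) untreated and -1.75 (SE 0.153, adjusted p 6e-06) after LPS, and the interaction was -0.02 (95% interval -0.48 to 0.45). Where the probes lie relative to the deleted part of the gene is not stated in the labels. The array medians lay between 5.19 and 5.37 on the log2 scale, and replicates correlated at 0.9809 to 0.9936. The distance from the lower to the upper quartile varied from 3.19 to 3.80 between arrays. After LPS it was 3.49, 3.19 and 3.20 on +/- arrays and 3.50, 3.39 and 3.70 on -/- arrays. Replicates were closer in -/- cells, with a median SD over genes of 0.14 untreated and 0.16 after LPS, than in +/- cells, with 0.19 and 0.21. The 8 macrophage markers were all above log2 6, while T cell, B cell, NK cell, dendritic cell, mast cell and erythroid lists had 0 markers above it. Both +/- arrays numbered 1 carried Y-linked signal (mean 7.27 and 7.10, against 2.58 to 3.07 on the other arrays), so 1 array in each +/- group and 0 in each -/- group carried it.

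Sequences of 5 promoters are given here because their genes stand for the patterns described below, and 1 mature microRNA because the probe set of its precursor gene, Mir155, was among the 216. The promoter windows run from 250 bases before to 50 after the start site, from RefSeq on GRCm38.p6, 5′ to 3′ on the gene's strand. Capitals mark matches, on either strand, to the motifs counted near the end: a PU.1 element in Tnc, an antioxidant and an interferon element in Edn1, 2 interferon elements and an AP-1 element in Ifit3b, an interferon element, NF-kB consensus sites and overlapping antioxidant and AP-1 elements in Cxcl10, and NF-kB consensus sites and an antioxidant element in H2-M2.
Tnc promoter window, chr4:64046966-64047265, minus strand: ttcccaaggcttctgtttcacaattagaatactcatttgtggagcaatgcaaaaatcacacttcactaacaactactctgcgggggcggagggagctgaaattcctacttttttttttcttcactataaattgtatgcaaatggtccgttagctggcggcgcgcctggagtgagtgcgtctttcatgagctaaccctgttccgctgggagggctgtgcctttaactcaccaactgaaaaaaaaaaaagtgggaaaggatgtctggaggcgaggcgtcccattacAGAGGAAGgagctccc
Edn1 promoter window, chr13:42301226-42301525, plus strand: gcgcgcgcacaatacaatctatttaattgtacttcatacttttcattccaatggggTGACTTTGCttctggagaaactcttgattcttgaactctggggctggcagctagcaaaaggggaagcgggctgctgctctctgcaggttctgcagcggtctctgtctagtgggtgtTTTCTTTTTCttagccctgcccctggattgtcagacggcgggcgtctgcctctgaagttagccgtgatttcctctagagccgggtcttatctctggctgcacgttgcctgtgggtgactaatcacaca
Ifit3b promoter window, chr19:34607707-34608006, plus strand: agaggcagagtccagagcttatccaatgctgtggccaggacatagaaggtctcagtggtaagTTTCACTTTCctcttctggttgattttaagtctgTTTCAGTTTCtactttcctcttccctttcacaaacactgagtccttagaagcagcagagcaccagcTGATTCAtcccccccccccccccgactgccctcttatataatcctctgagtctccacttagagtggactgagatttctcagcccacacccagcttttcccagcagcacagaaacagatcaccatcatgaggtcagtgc
Cxcl10 promoter window, chr5:92348840-92349139, minus strand: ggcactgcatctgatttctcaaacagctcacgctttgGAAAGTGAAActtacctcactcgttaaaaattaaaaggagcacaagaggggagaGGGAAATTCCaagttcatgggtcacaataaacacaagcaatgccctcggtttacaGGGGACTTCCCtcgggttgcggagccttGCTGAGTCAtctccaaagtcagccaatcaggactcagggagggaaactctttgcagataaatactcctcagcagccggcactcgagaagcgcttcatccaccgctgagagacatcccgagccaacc
H2-M2 promoter window, chr17:37483505-37483804, minus strand: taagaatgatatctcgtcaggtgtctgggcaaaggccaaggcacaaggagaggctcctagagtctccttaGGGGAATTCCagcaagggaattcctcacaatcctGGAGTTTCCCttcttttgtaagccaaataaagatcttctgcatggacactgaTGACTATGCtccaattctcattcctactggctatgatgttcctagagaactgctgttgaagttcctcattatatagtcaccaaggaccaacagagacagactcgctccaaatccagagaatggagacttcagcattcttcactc
In the microRNA, which lies at chr16:84714143-84714165 on the plus strand, capitals mark the seed, bases 2 to 8.
mmu-miR-155-5p: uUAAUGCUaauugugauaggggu

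Most of the 216 genes were induced less by LPS in Hdac3 -/- cells. The interaction was below 0 for 155 genes and above 0 for 61. That is 1.08% of genes tested (0.777% below and 0.306% above 0), against an LPS effect in 25.1% of genes in +/- cells and 8.87% in -/- cells, and a genotype effect in 2.66% untreated and 15.7% after LPS. An unadjusted p under 0.05 was found for 2281 genes. The median interaction over all genes was -0.02, a value that the common normalization of the arrays holds near 0. Of the 216, 187 had responses that differed by at least 2-fold. The genes nearest the threshold were Tmem170b and Zbed3, with adjusted p of 0.0492 and 0.0499, inside it, and 9330175E14Rik and Usp12, both 0.0506, outside it.

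Sorting by the LPS response in each genotype gave 142 genes with weaker induction in -/- cells (65.7% of the 216), 43 with weaker repression, 15 with stronger induction, 8 with stronger repression and 8 that responded in opposite directions. Of 1912 genes induced in +/- cells, 147 (7.69%) had an interaction below 0 and 9 (0.471%) above 0. Of 3085 genes repressed in +/- cells, 46 (1.49%) had an interaction above 0, a weakened or reversed response, and 1 (0.0324%) below 0. Sorting by level, 184 genes (85.2%) differed between genotypes past the threshold only after LPS, 26 differed in the same direction before and after, 3 in opposite directions, and 3 only before LPS. In bulk RNA, a response in fewer cells and a weaker response per cell cannot be told apart. These classes use the contrasts that make up the interaction, so they describe the genes and do not test them.

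The signs of all 216 held with each array left out in turn, but the counts did not. Without +/- LPS replicate 1 there were 349 genes, 174 above and 175 below 0, and 152 of them were in the weaker repression class. Fewer passed without +/- LPS replicate 3 (126), -/- untreated replicate 1 (97), -/- LPS replicate 1 (121) or -/- LPS replicate 3 (113). Genes above 0 numbered 39 without +/- untreated replicate 2, 37 without +/- untreated replicate 3 and 39 without -/- untreated replicate 3. With arrays weighted by their agreement, 592 genes passed, 270 above and 322 below 0. With both +/- arrays carrying Y-linked signal left out, 229 passed, 110 above and 119 below 0. With signals below 5 set to 5, 157 passed, 114 of the 216 among them. A total of 92 genes passed with every single array left out, 73 of them in the weaker induction class.

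**Figure D1:**
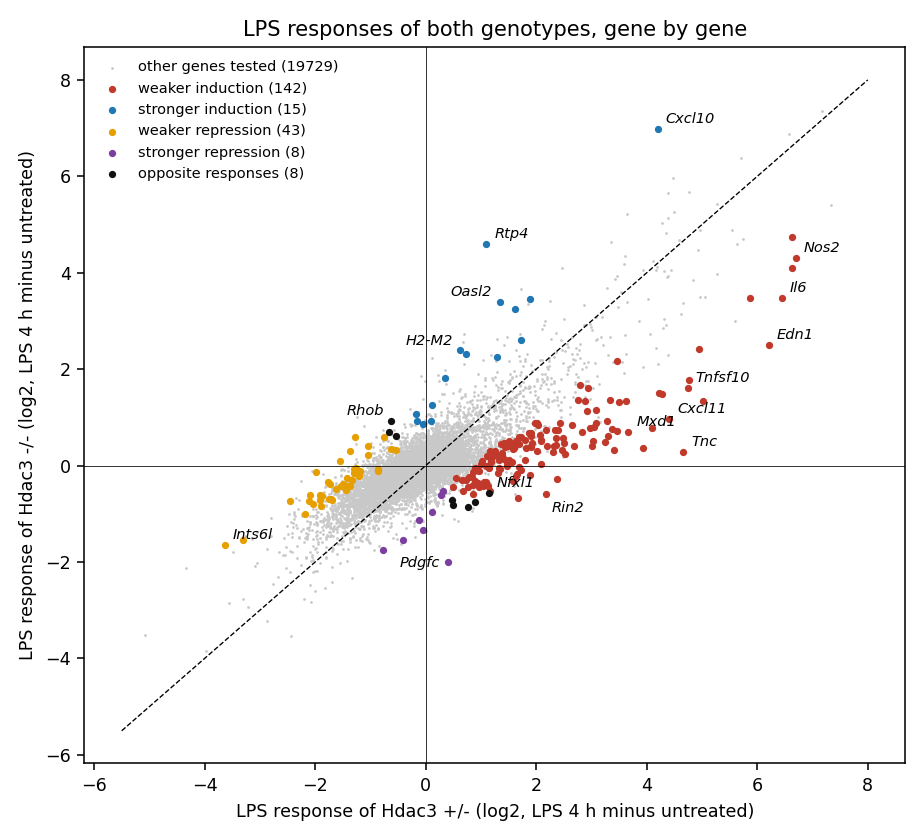
LPS response of Hdac3 -/- cells (y axis) against that of Hdac3 +/- cells (x axis), both in log2 units, for 19945 genes. Coloured points are the 216 genes with an interaction past the threshold, by response class, and the dashed line marks equal responses. Red points (142 genes induced less in -/- cells) lie below the line at the right, while Cxcl10 and Rtp4 lie far above it.

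The 142 genes of the weaker induction class had a median LPS response of 1.84 in +/- cells (range 0.49 to 6.70) and 0.375 in -/- cells (range -0.67 to 4.75). The response was still past the threshold in -/- cells for 44 and was not for 98. In 89 of those 98, the 95% interval of the -/- response lay below 1, a doubling, and 39 of the 142 had a -/- response below 0 that did not pass. For 124 of the 142, levels differed between genotypes past the threshold only after LPS. The untreated genotype difference had a 95% interval within -1 to 1 for 110 of these 124. The untreated arrays of the genotypes overlapped for 86 of the 124 and stood apart for the rest, so smaller basal differences may be present. The share of all genes with overlap is not given here. Both untreated means were under log2 6 for 37 of the 124, near the lower end of the scale, where a basal difference is hard to see.

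Tnc, which encodes the extracellular matrix glycoprotein tenascin-C, had the largest interaction of all genes tested. Its log2 signals were 4.13, 3.63 and 3.78 in untreated +/- arrays and 8.73, 8.25 and 8.53 after LPS. On -/- arrays they were 3.85, 3.96 and 3.88 untreated and 4.26, 4.34 and 3.98 after LPS. The untreated groups overlapped, and after LPS the lowest +/- array stood far above the highest -/- array. LPS induced Tnc 25.2-fold in +/- cells and 1.23-fold in -/- cells, an interaction of -4.36 (95% interval -4.86 to -3.86, adjusted p 8.63e-07), which passed with every array left out. Over the alternatives it ranged from -4.50 to -3.50. The untreated and -/- signals lay near the lower quartile of the arrays (3.70 to 3.99). The ratios therefore depend on the low end of the scale, and the untreated overlap does not show equal basal expression.

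Among secreted factors, Il6, the acute-phase cytokine, read 2.57, 3.06 and 2.55 untreated and 10.06, 8.63 and 8.81 after LPS in +/- cells. The -/- arrays read 2.86, 2.71 and 2.80 untreated and 6.19, 6.06 and 6.53 after LPS. The untreated signals lay below the lower quartile of every array (3.70 to 3.99), so their overlap does not show equal basal expression. The ratios of signals, 86.8-fold in +/- and 11.1-fold in -/- cells, depend on this low end of the scale. Its interaction was -2.97 (SE 0.412, adjusted p 0.00298). Edn1, the precursor of the vasoconstrictor endothelin-1, read 10.65, 10.40 and 9.96 in +/- and 7.17, 6.61 and 6.42 in -/- cells after LPS, from untreated means of 4.13 and 4.23. Its induction was 73.9-fold in +/- and 5.67-fold in -/- cells (interaction -3.70, SE 0.393, adjusted p 0.000476).

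Il18 and Il15 encode an inflammasome-processed cytokine and a cytokine that sustains NK and memory T cells. After LPS, Il18 read 8.07, 8.01 and 7.94 in +/- and 5.97, 5.70 and 6.30 in -/- cells, where the LPS and untreated arrays overlapped. Its induction was 6.44-fold in +/- cells, against 1.32-fold in -/- cells, which did not pass. Il15 read 9.78, 9.91 and 10.19 against 7.70, 8.30 and 7.29 after LPS, from untreated means of 6.88 in both genotypes (interaction -2.19, adjusted p 0.00402). After LPS, Il15ra, the receptor chain that presents IL-15 to other cells, read 9.53, 9.74 and 9.96 in +/- and 6.79, 6.50 and 6.50 in -/- cells (interaction -2.74, SE 0.244, adjusted p 0.000232). Il15ra, which is in none of the lists used here, was chosen after its values were seen.

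Other secreted factors and enzymes differed in how firmly they were called. Lipg, endothelial lipase, read 7.85, 7.47 and 8.58 in +/- and 4.65, 3.92 and 4.07 in -/- cells after LPS, and its -/- response of 0.36 did not pass (interaction -3.59, adjusted p 0.000565). Il33, an alarmin of the IL-1 family, read 7.85, 10.46 and 7.71 in +/- and 5.53, 3.95 and 4.66 in -/- cells after LPS. The genotypes did not overlap, but the +/- arrays spread over more than 2 log2 units, and the interaction of -3.69 (adjusted p 0.0454) passed with only 4 of the 12 arrays left out. Nos2, inducible nitric oxide synthase, read 10.99, 11.39 and 11.83 in +/- and 9.18, 9.80 and 7.79 in -/- cells after LPS. Its interaction of -2.40 (adjusted p 0.0492) passed with 3 of the 12 arrays left out and reached 0.0637 after quantile normalization. Hdc, which makes histamine, was induced 12.3-fold in +/- and 2.52-fold in -/- cells (interaction -2.28, adjusted p 0.00119).

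Cxcl11 is named for a chemokine ligand of CXCR3, but RefSeq's C57BL/6-based annotation lists it as a transcribed pseudogene, so its signal is that of a transcript and not of a chemokine. It read 4.33, 5.12 and 4.22 untreated and 8.65, 8.76 and 9.47 after LPS in +/- cells. The same probe set in -/- cells read 4.23, 4.70 and 4.59 untreated and 5.51, 5.64 and 5.29 after LPS. LPS induced it 21.2-fold in +/- and 1.96-fold in -/- cells (interaction -3.44, SE 0.357, adjusted p 0.000474), with overlap before LPS and none after it. Its neighbour on chromosome 5, Cxcl10, which encodes a ligand of CXCR3, moved the other way, as described below.

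Some receptors and sensors also passed, although the surface receptor and LPS sensing lists held no called member. Cd86, a costimulatory ligand of CD28, read 8.70, 9.56 and 9.29 in +/- and 7.59, 7.77 and 7.79 in -/- cells after LPS (10.2-fold against 2.59-fold induction, adjusted p 0.0094). Il13ra1, a receptor chain for IL-13 and IL-4, had an interaction of -1.77 (adjusted p 0.00601). Chosen after their values were seen, Tlr3, the endosomal sensor of double-stranded RNA, and Nod1, a cytosolic sensor of bacterial peptidoglycan, had +/- responses of 2.51 and 2.37 and -/- responses of 0.46 and -0.27. Nod2, the related sensor of muramyl dipeptide, had an interaction of -1.14 (adjusted p 0.0361) that passed with 3 of the 12 arrays left out. Tnfsf8, the CD30 ligand, lies beside Tnc on chromosome 4 and had an interaction of -2.76 (adjusted p 0.00138).

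Mxd1, a MAX-binding repressor that opposes MYC, read 10.45, 11.25 and 11.25 in +/- and 8.42, 7.83 and 7.72 in -/- cells after LPS, from untreated means of 7.32 and 7.29. LPS induced it 12.7-fold in +/- cells, and the -/- response of 0.70 did not pass (interaction -2.97, adjusted p 0.000979). Ccnd2, which encodes cyclin D2, read 7.39, 6.41 and 6.14 untreated and 10.09, 9.81 and 10.28 after LPS in +/- cells, against 5.81, 5.92 and 5.72 untreated and 6.24, 6.05 and 6.16 after LPS in -/- cells. Its untreated groups did not overlap, although that difference of -0.83 did not pass (adjusted p 0.109), and its induction of 10.6-fold in +/- cells compared with 1.26-fold in -/- cells. Dusp2, a phosphatase of MAP kinases, was induced 10.4-fold in +/- and 1.68-fold in -/- cells (interaction -2.64, adjusted p 0.00382). Irf2, a factor that competes with IRF1 at interferon elements, read 9.31, 9.54 and 9.46 in +/- and 8.40, 8.22 and 8.33 in -/- cells after LPS, and its interaction of -1.19 (adjusted p 0.0373) passed with 2 of the 12 arrays left out.

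Mir155, the precursor of the microRNA whose sequence is given above, was chosen after its values were seen. Its probe set read 4.07, 4.67 and 4.02 untreated and 8.92, 9.19 and 9.50 after LPS in +/- cells. For -/- cells the signals were 4.46, 4.59 and 4.49 untreated and 6.91, 7.65 and 6.24 after LPS. Both genotypes induced it, 30.9-fold and 5.34-fold, from overlapping untreated levels (interaction -2.53, SE 0.404, adjusted p 0.00713, passing with every array left out). An array of this kind measures the primary or precursor transcript, and the mature microRNA was not measured.

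**Figure D2:**
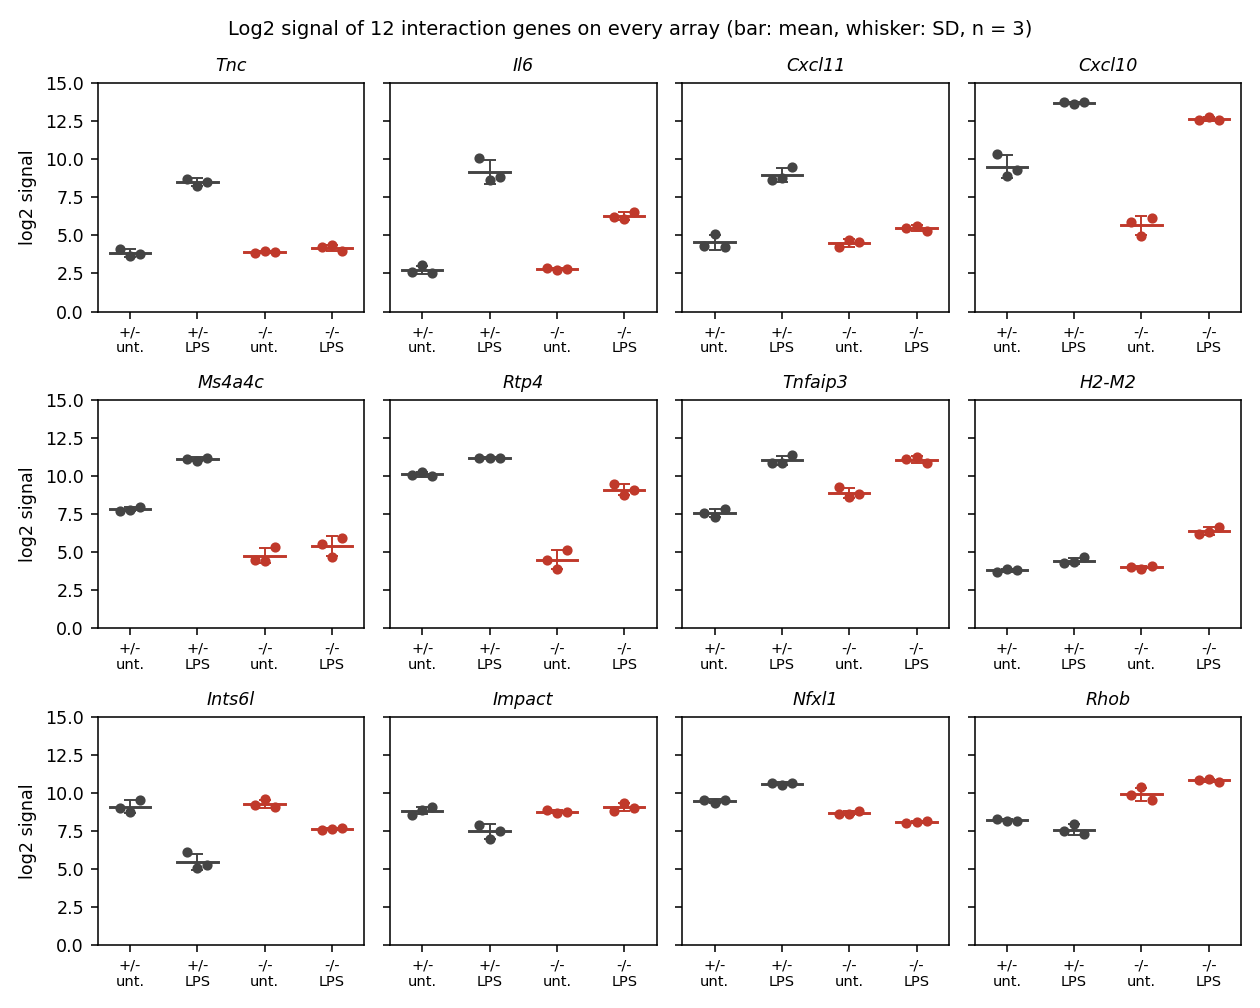
Log2 signal (y axis) of 12 interaction genes on each of the 12 arrays, with the mean and SD of 3 arrays per group, grey for Hdac3 +/- and red for Hdac3 -/-. Tnc, Il6 and Cxcl11 overlap untreated and separate after LPS, Cxcl10 and Rtp4 start apart and come closer, and Nfxl1 and Rhob move in opposite directions.

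In 14 of the 142 genes of the weaker induction class, the -/- level was already lower before LPS. Tnfsf10, the death ligand TRAIL, read 6.07, 5.56 and 5.42 untreated and 10.63, 10.14 and 10.51 after LPS in +/- cells. In -/- cells it read 3.86, 3.80 and 3.79 untreated and 5.79, 4.74 and 5.76 after LPS. The genotype difference widened from -1.87 to -4.99 (interaction -3.12, adjusted p 0.000777), with no overlap at either time. Ms4a4c, a 4-transmembrane protein of macrophages, read 7.72, 7.80 and 7.95 untreated and 11.15, 11.00 and 11.20 after LPS in +/- cells, and 4.52, 4.44 and 5.32, then 5.53, 4.67 and 5.95, in -/- cells. It had the widest genotype difference after LPS among the 216, -5.74, and its -/- response of 0.62 did not pass.

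The interferon-induced genes Iigp1, a GTPase that attacks pathogen vacuoles, and Ifit3b, a relative of the RNA-binding IFIT proteins, were similar. Iigp1 rose 18.8-fold in +/- and 2.84-fold in -/- cells, from an untreated difference of -2.01, and Ifit3b 19.4-fold and 2.79-fold, from -1.87. Cd69, an early activation marker, read 11.83, 10.95 and 11.21 in +/- and 7.23, 8.12 and 7.45 in -/- cells after LPS. Its interaction of -2.38 (adjusted p 0.0255) passed with 7 of the 12 arrays left out. Samhd1, the dNTP hydrolase that restricts retroviruses, and the nucleoside transporter Slc28a2 belong here too, with untreated differences of -1.06 and -1.66 and interactions of -0.92 and -2.19. Ms4a4c and Ms4a4b, Slc28a2 and Slc28a2b, Gbp4 and Gbp11, and the Ifi200 genes Ifi203, Ifi205, Ifi207 and Ifi214 have close relatives in the genome, so signals of one copy may include another.

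In 4 genes of the weaker induction class, the untreated -/- level was higher. Tnfaip3, which encodes A20, the deubiquitinating brake on NF-kB, read 7.60, 7.33 and 7.81 untreated and 10.88, 10.88 and 11.38 after LPS in +/- cells. The -/- arrays read 9.28, 8.62 and 8.84 untreated and 11.11, 11.28 and 10.87 after LPS. The groups stood apart before LPS, by 1.33 (adjusted p 0.00198), and overlapped after it, at a difference of 0.04. The interaction of -1.29 (adjusted p 0.0476) passed with 2 of the 12 arrays left out, and with sex as a covariate its adjusted p was 0.0532. Gadd45g, a stress-response protein, began higher in -/- cells by 0.86 and ended lower by 1.75, since its induction was 8.06-fold in +/- and 1.32-fold in -/- cells (adjusted p 0.000474).

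Mmp13, a collagenase, also changed order, from 1.31 higher untreated to 1.24 lower after LPS, with inductions of 99.4-fold and 17.0-fold. Its call was lost without -/- untreated replicate 1 (adjusted p 0.054) or -/- LPS replicate 3 (0.0524). Cd164, a sialomucin of the cell surface, was the other gene of this kind, with 0.84 higher untreated and 0.58 lower after LPS. Gadd45g, Mmp13 and Cd164 were the 3 genes whose levels differed past the threshold in opposite directions before and after LPS.

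The 15 genes with stronger induction in -/- cells fell into 2 groups by level. In 7 of them, Rtp4, Cxcl10, Oasl2, Samd9l, Ifi203, Ifi207 and Xaf1, the -/- level was lower both before and after LPS and the gap narrowed. In the other 8 the -/- level was higher after LPS, with no untreated difference past the threshold.

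Rtp4, an interferon-induced chaperone of G protein-coupled receptors, read 10.04, 10.29 and 9.99 untreated and 11.17, 11.22 and 11.22 after LPS in +/- cells. The same probe set in -/- cells read 4.49, 3.88 and 5.16 untreated and 9.46, 8.75 and 9.09 after LPS. The untreated gap of -5.60 was the widest basal difference among the 216 and shrank to -2.11 after LPS, because LPS induced the gene 24.0-fold in -/- and 2.14-fold in +/- cells. The interaction was 3.49 (95% interval 2.70 to 4.27, adjusted p 0.000474) and passed with every array left out.

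Cxcl10 read 10.34, 8.92 and 9.27 untreated and 13.73, 13.64 and 13.77 after LPS in +/- cells. For -/- cells the signals were 5.86, 4.96 and 6.16 untreated and 12.58, 12.79 and 12.56 after LPS. It thus rose 127.0-fold in -/- and 18.4-fold in +/- cells, and the gap went from -3.85 to -1.07 (interaction 2.78, SE 0.459, adjusted p 0.00924). After LPS it was the brightest probe set on 2 of the 3 +/- arrays and the second brightest on the other, with array maxima of 13.64 to 13.81, and it ranked 51 to 79 from the top in -/- cells. Whether the upper end of the scale limited the +/- response was not tested. With signals below 5 set to 5, the interaction was 2.77 with an adjusted p of 0.0764.

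Oasl2 and Samd9l, both interferon-induced antiviral proteins, and Ifi203, a member of the Ifi200 family, were each lower in -/- cells by 3.30 to 3.80 before LPS and by 1.73 to 2.15 after it. Oasl2 read 6.04, 4.75 and 6.28 in untreated -/- arrays and 9.31, 9.73 and 9.44 in untreated +/- arrays. Its interaction of 2.05 (adjusted p 0.0361) passed with 4 of the 12 arrays left out and had an adjusted p of 0.0567 after cyclic loess normalization. Samd9l had an interaction of 1.64 (adjusted p 0.00649) that passed with every array left out but not with signals below 5 set to 5 (1.24, adjusted p 0.0589), and Ifi203 one of 1.57 (adjusted p 0.0266) that passed with 6 of the 12 arrays left out. Rtp4, Cxcl10, Oasl2, Samd9l and Ifi203 had the 5 widest basal gaps of the 216 genes.

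H2-M2, a non-classical MHC class I gene, was one of the 8 genes with stronger induction and no basal difference past the threshold. It read 3.69, 3.91 and 3.82 untreated and 4.32, 4.34 and 4.66 after LPS in +/- cells. In -/- cells it read 4.03, 3.90 and 4.11 untreated and 6.20, 6.33 and 6.68 after LPS, above every +/- array. Its induction was 5.23-fold against 1.55-fold (interaction 1.76, SE 0.215, adjusted p 0.00119). Zfp558, a zinc finger gene, reached 7.22, 6.85 and 6.62 in -/- and 4.73, 4.95 and 5.28 in +/- cells after LPS (interaction 1.59, adjusted p 0.00495). The other 6 were Ankrd37, Kctd1, Slc6a15, Sh3tc1, Rdh12 and Mirt2, with interactions of 0.82 to 1.46, and in all of those 6 the +/- response, between -0.18 and 0.35, did not pass.

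**Figure D3:**
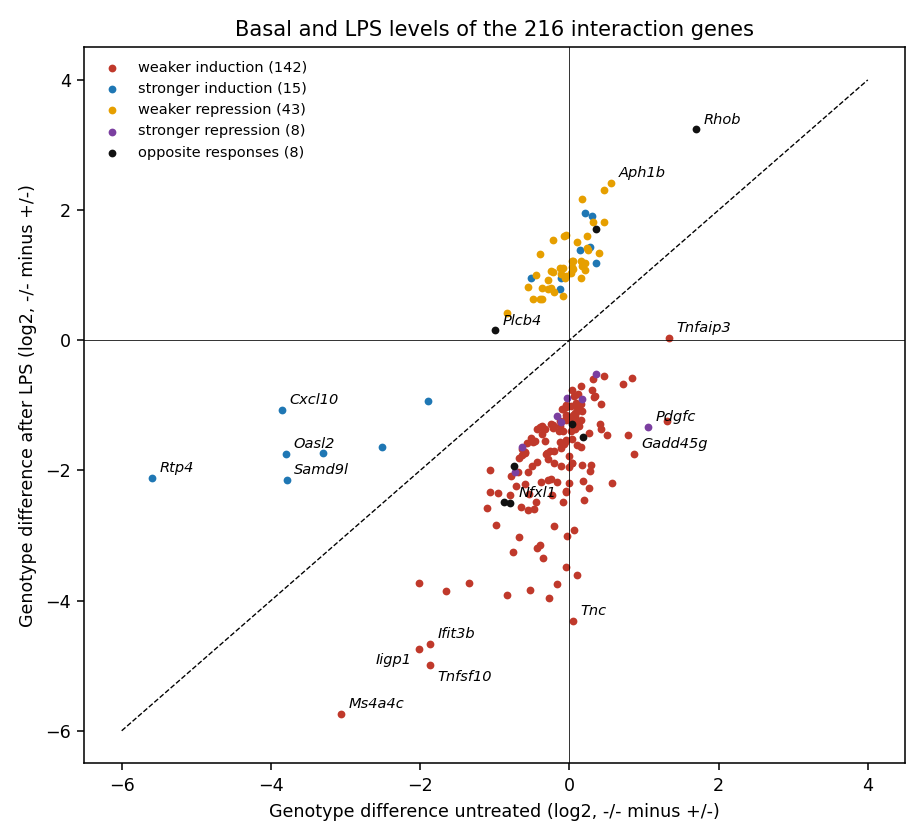
Genotype difference after LPS (y axis) against that in untreated cells (x axis), both as log2 -/- minus +/-, for the 216 genes, coloured by response class. Points below the dashed line of equal differences have an interaction below 0. Most points lie near 0 on the x axis, Ms4a4c, Tnfsf10, Iigp1 and Ifit3b lie at the lower left below the line, and Rtp4, Cxcl10, Oasl2 and Samd9l lie at the left above it.

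Weaker repression in -/- cells was found for 43 genes, with a median response of -1.45 in +/- and -0.35 in -/- cells. The response was past the threshold in -/- cells for 12 and was not for 31. In 42 of the 43 the levels differed only after LPS, when all 42 were higher in -/- cells. Both untreated means were at least log2 6 for 39 of the 43. The class held 152 genes without +/- LPS replicate 1, and 8 of its 43 genes passed with every array left out. It held 34 genes after quantile and 34 after cyclic loess normalization, and 69 with dim genes left out.

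Ints6l, a paralog of an Integrator subunit, had the largest such interaction. It read 9.01, 8.74 and 9.56 untreated and 6.09, 5.08 and 5.25 after LPS in +/- cells. The -/- arrays read 9.18, 9.59 and 9.07 untreated and 7.56, 7.64 and 7.72 after LPS. LPS lowered it in both genotypes, by 3.63 and 1.64 on the log2 scale, from overlapping untreated levels, and the interaction was 1.99 (SE 0.362, adjusted p 0.0168). The call was lost without +/- LPS replicate 3 (adjusted p 0.0562), -/- untreated replicate 1 (0.058) or -/- LPS replicate 3 (0.0574).

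Aph1b, a subunit of gamma-secretase, read 6.51, 6.78 and 6.88 in +/- and 9.09, 9.57 and 8.76 in -/- cells after LPS, from untreated means of 7.99 and 8.55 (interaction 1.86, adjusted p 0.0115). Impact, which restrains the amino acid sensor GCN2, and Zfp971, a zinc finger gene, had -/- responses of 0.31 and 0.10 that did not pass, against -1.36 and -1.55 in +/- cells, and both interactions passed with every array left out. Cnr2, the cannabinoid receptor of immune cells, fell by 3.30 in +/- and by 1.54 in -/- cells, and Insr, the insulin receptor, fell by 2.45 in +/- cells, with -0.73 in -/- cells that did not pass. These interactions, 1.76 and 1.72, passed with 3 and 4 of the 12 arrays left out. Insr gave 1.28 with an adjusted p of 0.0612 when all its probe sets were averaged.

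Chst12, which sulfates chondroitin, had an interaction of 1.48 that passed with 5 of the 12 arrays left out, and Zfp931, beside Zfp971 on chromosome 2, one of 1.85 that passed with 1 of the 12. Zfp931 read 3.97, 2.60 and 2.77 in +/- arrays after LPS, and with signals below 5 set to 5 its interaction was -0.04. Mapk14, the p38 alpha kinase, was chosen after its values were seen. It read 8.64, 8.76 and 8.29 in +/- and 9.95, 9.62 and 9.75 in -/- cells after LPS, from untreated means of 9.84 and 9.87 (interaction 1.19, adjusted p 0.0303, passing with 5 of the 12 arrays left out). Fv1, which restricts murine leukaemia viruses, was the only gene of this class with a basal difference and none past the threshold after LPS. It was lower in untreated -/- cells by 0.84 (adjusted p 0.00806) and fell by 1.88 in +/- and by 0.63 in -/- cells.

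The 8 genes with stronger repression in -/- cells were Pdgfc, Ehd4, Stard8, Ndst2, Casp2, Uvrag, Rnpepl1 and Anks1. Pdgfc, a platelet-derived growth factor, read 5.62, 6.23 and 6.20 untreated and 5.84, 6.48 and 6.92 after LPS in +/- cells, and 7.01, 6.76 and 7.43, then 4.84, 5.37 and 5.04, in -/- cells. It was therefore above every +/- array before LPS and below every +/- array after it, although the untreated difference of 1.05 did not pass (adjusted p 0.0544). The interaction was -2.38 (SE 0.376, adjusted p 0.00649) and passed with every array left out, the only one of the 8 that did. In 7 of the 8 the +/- response did not pass, and the exception was Uvrag, with -0.77 in +/- and -1.76 in -/- cells.

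Significant responses of opposite sign were found for 8 genes, of which 4 had an interaction that passed with every array left out. Nfxl1, a putative zinc finger transcription factor, read 9.51, 9.34 and 9.55 untreated and 10.68, 10.49 and 10.67 after LPS in +/- cells. The same probe set in -/- cells read 8.61, 8.60 and 8.81 untreated and 8.05, 8.12 and 8.18 after LPS. The rise of 1.15 and the fall by 0.56 gave an interaction of -1.71 (SE 0.175, adjusted p 0.000474), which passed with every array left out. Asb13, of the SOCS-box family, rose by 0.90 in +/- and fell by 0.76 in -/- cells. Coro2a, a coronin reported as a component of NCoR complexes, rose by 0.77 in +/- and fell by 0.85 in -/- cells, and its interaction of -1.61 (adjusted p 0.0373) passed with 4 of the 12 arrays left out.

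Rhob, a small GTPase, read 8.31, 8.18 and 8.16 untreated and 7.48, 7.99 and 7.33 after LPS in +/- cells, and 9.84, 10.39 and 9.52, then 10.88, 10.92 and 10.72, in -/- cells. It fell by 0.62 in +/- cells and rose by 0.93 in -/- cells, so the genotype gap went from 1.70 to 3.24. The interaction of 1.55 (adjusted p 0.023) passed with 7 of the 12 arrays left out and had an adjusted p of 0.0571 after quantile normalization. Mphosph10, a ribosome biogenesis protein, fell by 0.66 in +/- and rose by 0.69 in -/- cells, and Plcb4, a phospholipase C, fell by 0.54 and rose by 0.62. Plcb4 was lower in -/- cells only before LPS, by 1.00. Elmod2 and the lipid enzyme Cds1 completed the class, with rises of 0.50 and 0.47 in +/- and falls by 0.82 and 0.72 in -/- cells.

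Function lists show where these genes sit in the LPS response. The 39 measured interferon-stimulated genes held 5 interactions above 0 (Rtp4, Cxcl10, Oasl2, Samd9l and Xaf1) and 5 below (Iigp1, Ms4a4c, Isg20, Ifi205 and Daxx), 25.6% of the list against 1.08% of all genes. Of the 1912 genes that LPS induced in +/- cells, 7.69% had an interaction below 0 and 0.471% above 0. The lists were written with earlier results of these data known, so such shares are descriptions. The list median was 0.16 against -0.02 over all genes, and over the alternatives it ranged from -0.07, with signals below 5 set to 5, to 0.37, without +/- untreated replicate 3. It was 0.07 after quantile and 0.05 after cyclic loess normalization and -0.03 without -/- LPS replicate 1, so no direction is given for the list. Over all alternatives 2 to 7 members passed above 0 and 3 to 6 below. LPS induced 38 of the 39 in +/- cells, against 1912 of all 19945 genes. It induced 35 in -/- cells, where LPS calls in either direction covered 8.87% of all genes. The median untreated genotype difference of the list was -2.33. Ifit2, Mx1 and Zbp1, antiviral effectors with untreated differences of -3.34, -2.92 and -2.36, had interactions of 0.08, 0.09 and 0.01 that did not pass.

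Among 19 interferon signalling genes, Irf2 alone passed (5.26% of the list). Irf7, the interferon-induced amplifier of interferon genes, had an interaction of 1.17 (adjusted p 0.0819), and Ifnb1, interferon beta itself, one of -0.14, with an LPS response of 0.10 in +/- and -0.05 in -/- cells, neither past the threshold. Of 28 inflammatory cytokines and enzymes, 6 had an interaction below 0 (Edn1, Tnfsf10, Il6, Nos2, Il18 and Il15) and 0 above. That is 21.4% of the list, of which LPS induced 24 members in +/- cells, and the list median was -0.38. An interaction below 0 was found for 0.777% of all genes and for 7.69% of the genes induced in +/- cells. Over the alternatives the median ranged from -0.56, without both +/- arrays numbered 1, to -0.22, without +/- untreated replicate 3, and 5 to 9 members passed below 0. The rest were not called either way. Il1a and Il1b, the IL-1 cytokines, rose by 7.18 and 6.57 in +/- and by 7.35 and 6.88 in -/- cells, and Tnf, the tumour necrosis factor gene, by 2.72 and 2.43.

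In the chemokine list of 18, which does not hold Cxcl10 because that gene stands among the interferon-stimulated genes, only the pseudogene Cxcl11 passed. The list median was -0.38, and it lay between -0.45 and -0.05 over the alternatives, at -0.24 without +/- LPS replicate 2 and -0.21 without +/- untreated replicate 3. Cxcl2 and Ccl5, attractants of neutrophils and T cells, had interactions of 0.75 and 0.67, and Ccl7 and Ccl2, attractants of monocytes, -2.10 and -1.64, none of which passed. Dusp2 and Tnfaip3 passed among 29 NF-kB feedback and early response factors, while Nfkbia, the inhibitor IkB alpha, had -0.71 (adjusted p 0.13). Cd69 and Cd86 passed among 12 costimulatory genes, Mmp13 among 16 matrix genes, Il13ra1 among 16 genes of alternative activation, and Ccnd2 among 29 cell cycle genes. The called shares of these lists were 5.56% (chemokines), 6.9% (NF-kB feedback), 16.7%, 6.25%, 6.25% and 3.45%, all below 0. The share below 0 was 0.777% of all genes and 7.69% of genes induced in +/- cells. The cell cycle list had a median of 0.47, which ranged from 0.06 without +/- LPS replicate 2 to 0.79 without +/- untreated replicate 2. It was also over 1.5 times away from 0.47 without -/- untreated replicate 3 (0.08), +/- untreated replicate 1 (0.22), +/- untreated replicate 3 (0.26) or +/- LPS replicate 1 (0.72). LPS repressed 14 of its 29 members in +/- and 4 in -/- cells. Over all 19945 genes, 3085 were repressed in +/- cells. Calls in either direction, up or down, covered 25.1% of all genes in +/- and 8.87% in -/- cells. Its members other than Ccnd2 did not pass.

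No member passed in the lists for LPS sensing (16 genes), MHC class I (11) and class II (7) presentation, NRF2 targets (16), LXR and PPAR lipid handling (17), cholesterol (17), glycolysis (18), prostanoids (15), surface receptors (25), macrophage transcription factors (13), p53 targets (16) and class I histone deacetylases with their corepressors (8). Over all genes 1.08% passed, so the lack of a called member in lists of 7 to 25 genes is near that share. In LPS sensing, Tbk1, the kinase of IRF3, had -0.66 (adjusted p 0.0672) and Myd88, the adaptor, -0.70 (0.145). Gclc and Gclm, which make glutathione under NRF2, had 1.94 (0.0538) and 0.84 (0.255). Cebpa, a myeloid factor, had 1.17 (0.0557) and Maf -1.31 (0.0916), while Cxcr4, the CXCL12 receptor, had 2.22 (0.113) and the high-affinity IgG receptor Fcgr1 -0.96 (0.114). The histone deacetylase and corepressor genes, Hdac3 among them, had interactions between -0.60 and 0.56.

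**Figure D4:**
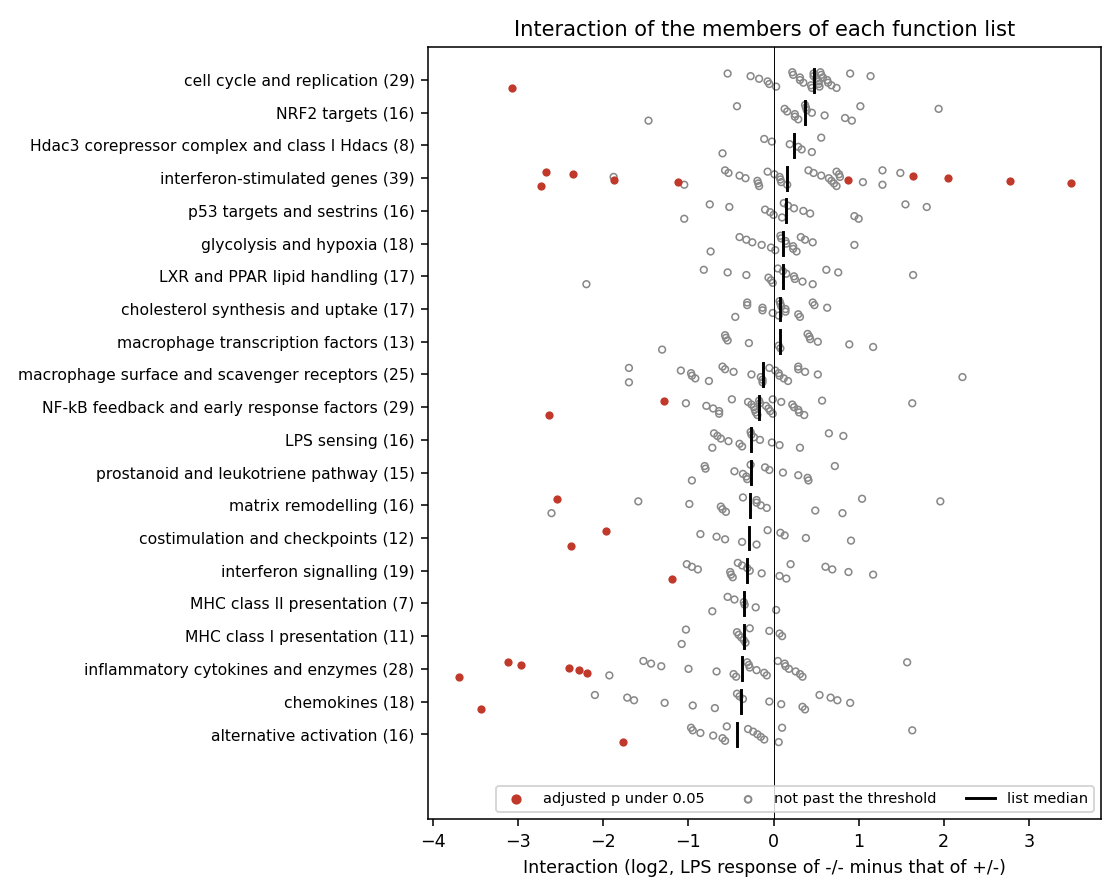
Interaction (x axis, log2) of each measured member of 21 function lists (y axis, number measured in brackets), with filled points past the threshold and vertical bars at the list medians. Called members lie on both sides of 0 only among interferon-stimulated genes, with 5 on each side, and the 6 called cytokines and enzymes all lie below 0.

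The promoter windows of 170 of the 216 genes were searched for 7 motifs on both strands, and every share below is a description of letters in these windows. The interferon element GAAANNGAAA was in 14.8% of 108 windows of the weaker induction class and in 0.0% of 35 windows of the weaker repression class. It was in 3.32% of all genes tested and in 5.79% of 1398 genes induced in +/- cells whose interaction did not pass. Within the weaker induction class it was in 11.8% of 93 that differed only after LPS and in 36.4% of 11 with a lower basal level in -/- cells. It was in 2 of 11 windows (18.2%) of the stronger induction class, both among the 6 with a lower basal level in -/- cells (33.3%). Edn1 and Ifit3b, shown above, and Irf2, Mmp13 and Ifi214 hold it, and so does Cxcl10, which moved the other way.

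The NF-kB consensus was in 11.1% of the windows of the weaker induction class, against 12% of induced genes not called and 9.19% of all genes tested. The AP-1 element TGANTCA was in 9.26%, 8.30% and 6.99% of the same sets and in 4 of 11 windows of the stronger induction class. The C/EBP element TTGCNNAA was in 14.8%, 10.0% and 9.69%, the antioxidant element TGACNNNGC in 19.4%, 14.5% and 13.4%, the interferon-gamma element TTCNNNGAA in 9.26%, 9.30% and 7.82%, and the PU.1 element AGAGGAAG in 4.63%, 5.08% and 4.52%. AP-1 and antioxidant matches can overlap, as in the Cxcl10 window. The window of H2-M2 holds 2 NF-kB sites and an antioxidant element, and that of Tnc a PU.1 element alone.

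Some of the 216 genes were neighbours on a chromosome. Of the 216 genes, 26 (12%) lay next to another of the 216 in the gene order of the tested genes, against 2.03% of other genes, in 13 runs, of which 11 had a common direction. These included Tnc with Tnfsf8, Ccnd2 with Parp11, Il18 with Bco2, Zfp971 with Zfp931, Ms4a4c with Ms4a4b, and Gbp4 with Gbp11. The other same-direction runs were Slc28a2 with Slc28a2b, Ifi207 with Ifi203, Ifit3b with Ifit1bl2, Gm4841 with Iigp1, and Dusp28 with Rnpepl1. Zfp971 with Zfp931, the Ms4a4, Gbp, Slc28a2 and Ifi200 pairs, Ifit3b with Ifit1bl2 and Gm4841 with Iigp1, 7 of the 11, are neighbours of 1 gene family, whose probes may share signal. The 2 runs with opposite directions were Ndst2 with Camk2g and Cxcl10 with Cxcl11.

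No interaction passed in any of the 13 marker lists. The summed linear signal of 9 neutrophil markers ranged from 669 to 1410 in +/- and from 773 to 2150 in -/- arrays after LPS, and that of 5 eosinophil markers from 189 to 362 and from 114 to 140. The 5 osteoclast markers summed to 472 to 663 and 618 to 1740. The 7 fibroblast markers summed to 297 to 376 and 270 to 311, and the 5 endothelial markers to 247 to 319 and 171 to 193. The 4 B cell markers summed to 79.8 to 87.1 and 60 to 77.5. The eosinophil, endothelial and B cell sums thus did not overlap between genotypes after LPS. Untreated, the eosinophil sums (103 to 162 and 94.2 to 101) and B cell sums (79 to 81.6 and 63.7 to 74) did not overlap either, while the endothelial sums did. The mast cell and basophil sums also did not overlap untreated (52.5 to 57.9 and 49.9 to 51.4), but did after LPS. The B cell and mast cell lists had 0 markers above log2 6 in any group mean, so their sums come from the low end of the scale. The share of all genes without overlap is not given here, so these are descriptions. In at least 1 group mean, 3 of the 9 neutrophil, 1 of the 5 eosinophil, 2 of the 5 osteoclast, 3 of the 7 fibroblast and 2 of the 5 endothelial markers were above log2 6. The endothelial marker nearest the threshold was the receptor gene Kdr, with an interaction of -1.38 (adjusted p 0.0538). Their part in the interactions was not tested.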

How the data were processed

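The authors' deposited table gives log2 signals of 28193 probe sets on 12 Affymetrix arrays, which per the submitters' processing notes come from RMA in the affy software; settings are not stated there. Of the probe sets 21648 have 1 gene symbol, 1313 several and 5232 none, and 21561 of the first kind matched a RefSeq table. The brightest probe set of each symbol gave 19945 genes.

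Group means were fitted with limma 3.58.1 in R 4.3.3 (8 residual degrees of freedom, eBayes without trend). All adjusted p-values come from this test with Benjamini-Hochberg adjustment over 19945 genes. Python 3.11.15, pandas 2.3.3, numpy 2.4.6 and matplotlib 3.10.9 made tables and figures. The method was tested on simulated data.

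Members, lists and rules were chosen with earlier results of these data known. Named were Hdac3, up to 10 genes per level class and direction with the largest interaction (5 where both levels differed or responses were opposite), skipping predicted genes, and up to 4 called members of each list or the 2 with the smallest p. Others named were chosen after their values were seen, also where not marked so. Alternatives covered normalization, low signals, probe sets, threshold, weights, blocks, sex and left-out arrays. Precision is set by the 3 arrays per group.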

Additional observations from a re-analysis of the deposited data

Results flagged for a closer look

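The LPS responses of the 2 genotypes differed, by the test of the interaction itself, for 216 genes. For 8 of them the responses were past the threshold in opposite directions. Their interactions were -1.71 for Nfxl1, -1.66 for Asb13, -1.61 for Coro2a, -1.33 for Elmod2 and -1.19 for Cds1, which rose in +/- and fell in -/- cells, and 1.16 for Plcb4, 1.35 for Mphosph10 and 1.55 for Rhob, which fell in +/- and rose in -/- cells. Of the 8 interactions, 4 passed with every array left out. The class of opposite responses held 3 to 11 genes with 1 array left out, 34 with array weights and 0 at an adjusted p under 0.01. Groups of 3 arrays were too small to look for single outlying arrays.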

How the results depend on the processing

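The 216 signs held in the alternatives on normalization, probe set means, weights, blocks and sex and with each of 12 arrays left out, but only 212 held with signals below 5 set to 5. With 1 array left out, the count ranged from 97 to 349, genes above 0 from 19 to 174, genes below 0 from 78 to 175, and the share of weaker induction from 45.8% to 77.8% and the share differing only after LPS from 79.9% to 86.6%. The share of weaker induction was 72.7% after cyclic loess normalization. With signals below 5 set to 5, 33 genes were above 0. With array weights, 592 passed, 270 above and 322 below 0, 43.9% with weaker induction and 76.9% differing only after LPS. At an adjusted p under 0.01, 73 passed, 6 above and 67 below 0, 89.0% with weaker induction. Leaving out both +/- arrays with Y-linked signal, chosen after seeing the data, gave 110 above 0 and 50.2% with weaker induction.

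Deviations from group means of same-numbered untreated and LPS arrays correlated at 0.243, 0.327 and 0.223 in +/- cells. In -/- cells the values were 0.09, 0.195 and -0.122. Between arrays of different genotype such correlations ran from -0.472 to 0.514, so values of this size do not show pairing. The numbers were therefore not used as pairs. A replicate block over all groups gave 158 genes, 39 of them above 0. A replicate block within genotype gave 312, 107 above 0 and 57.7% with weaker induction, and the level classes could not be fitted there. As a random replicate block it gave 347, 127 above 0 and 56.2% with weaker induction.

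Below 0 as reported, the Hdac3 interaction was 0.04 after quantile normalization, 0.05 with array weights and -0.14 to 0.08 with 1 array left out, and with signals below 5 set to 5, Ciita gave 0.00 and Zfp931 -0.04. The cause of these changes was not tested. Over 70 named genes and all alternatives, 1645 results kept direction and side of the threshold, 185 lost the threshold, 47 passed it newly and 10 changed sign. Leaving out dim genes moved the median of all genes to 0.143, with 67.8% of called genes below 0. Fitting all 28193 probe sets called 207, of which 25 lack a single symbol.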
